A study of Drosophila melanogaster with 5 samples.

Results

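The genes described here are those of Drosophila S2 cells whose coding sequence (CDS) carried ribosome footprints in small polysomes or in all polysomes, and the question is which of them were over- or under-represented in mRNAs bound by 2 to 6 ribosomes. One CDS was taken per gene, the longest listed, and a gene was kept where its footprint density reached 10 RPKM (reads scaled by CDS length and library size) in either library. Of 13842 genes with values, 5909 (42.7%) were kept, of which 5064 reached 10 RPKM in both libraries, 256 in the extensive small polysomes alone and 589 in all polysomes alone. Among genes next to the limit, CG15896 was kept with 10.02 RPKM in the extensive small polysomes and 8.44 RPKM in all polysomes, whereas CG12001 was left out with 8.67 RPKM in the extensive small polysomes and 9.997 RPKM in all polysomes.

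S2 cells are a line of embryonic origin with features of blood cells (hemocytes), and every library came from cultures given cycloheximide before harvest and lysed with 100 µg/ml of it, to hold the ribosomes on the mRNA. Cytoplasmic lysates were run on sucrose gradients, fractions were digested with RNaseI, and protected fragments of 28 to 34 nt were sequenced. The extensive small polysomes were the deeper, repeated preparation of the fraction with 2 to 6 ribosomes per mRNA, free of single ribosomes and large polysomes, and all polysomes were profiled with an extra bead-based step that removed rRNA. Also used were an initial small polysome library, a large polysome library (7 or more ribosomes) and total cytoplasmic mRNA, each preparation being 1 library.

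A translating mRNA carries several ribosomes in a row, and the number it can carry depends on the length of its CDS, on how often ribosomes start and on how fast they travel. A sucrose gradient sorts mRNAs by that number, so that an mRNA with a short CDS can be fully loaded and still sediment with small polysomes. Footprint density then counts the ribosomes per length of CDS on the mRNAs of that fraction, so that the same gene can have a different density in each fraction.

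The comparison sets 1 library against 1, no p-values were computed, and each fold is given with a 95% counting interval of its reads, which covers counting error only. Reads recovered from the RPKM steps came to 5755152 in the extensive small polysomes and 2299888 in all polysomes over the genes kept, with a median of 435 reads and 173 reads per gene. The only repeated fraction was the small polysomes: the log2 ratio of extensive over initial small polysomes had a median of 0.35 and an SD of 0.54 across the 5909 genes, and 88.3% of genes differed by less than 2-fold between these preparations. The spread was wider for short CDSs, with an SD of 0.88 up to 100 aa against 0.38 over 1500 aa. These ratios were not rescaled to CDS reads, which took 63.7% of the divisor in the extensive and 51.7% in the initial small polysomes. Since only the all polysome library was rRNA-depleted, the fraction and the preparation cannot be told apart. Of 8 hemocyte markers 7 were measured, of which Nplp2, Pxn and srp were kept. The 7 summed to 10798 RPKM in the extensive small polysomes and 4301 RPKM in all polysomes, while 5 genes of neurons, muscle, fat body, germline and photoreceptors summed to 3.93 RPKM and 10.2 RPKM, 3 of them (Yp1, ninaE and vas) being at 0 in both. Nplp2 alone gave 10434 RPKM and 3428 RPKM of the hemocyte sums. Pxn (260 RPKM against 702 RPKM) and srp (96.6 RPKM against 158 RPKM) were lower in the extensive small polysomes. Of the hemocyte markers not kept, Hml had 0.0189 RPKM in the extensive small polysomes and 0 in all polysomes, and the collagen gene Cg25C had 0 and 1.53 RPKM in these libraries. In the same order eater had 7.45 RPKM and 9.72 RPKM, and vkg 0.412 RPKM and 0.969 RPKM.

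Relative density was expressed as the log2 ratio of extensive small over all polysomes after adding 1 RPKM to each, and a gene was called over- or under-represented at 2-fold or more. In all, 810 genes (13.7% of the genes kept) were over-represented and 1182 (20%) were under-represented, with a median log2 ratio of −0.06 (95% interval −0.10 to −0.01). The counting interval of the fold excluded 1 for 807 of the 810 over-represented genes and for all 1182 under-represented genes, and it lay wholly beyond 2-fold for 341 and 881 of them. Over-represented genes had a median CDS of 183.5 aa and a median density of 92.2 RPKM in the extensive small polysomes against 35.3 RPKM in all polysomes. Under-represented genes had a median CDS of 926 aa, with 14.8 RPKM in the extensive small polysomes and 41.7 RPKM in all polysomes. Scaling both libraries to their reads on CDSs instead of to all mapped reads raised every log2 ratio by 0.20, and the calls then split into 1157 over-represented and 830 under-represented genes (58.2% of calls over-represented, against 40.7%). A gene below 10 RPKM in either library was kept through the other alone, so that it had to be higher there. With 10 RPKM required in both libraries, 695 of 5064 genes were over- and 838 under-represented. With the initial small polysomes in place of the extensive ones, 294 genes were over- and 1661 under-represented. CDSs took 51.7% of the divisor in the initial small polysomes, 63.7% in the extensive ones and 73.1% in all polysomes. This swap was not rescaled to CDS reads, so that the scaling lowered its ratios as well.

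The ratio was lower the longer the CDS. Genes with smORFs, CDSs of up to 100 aa, had a median log2 ratio of 1.00 (95% interval 0.88 to 1.08, n = 187), and 92 of them were over-represented against 4 under-represented. Genes of over 100 to 150 aa were alike, with a median of 1.01 (n = 338) and 172 genes over- against 1 under-represented. At over 150 to 250 aa the median was 0.86 (n = 860), with 337 genes over- and 3 under-represented. The change of sign lay in the class of over 250 to 500 aa, whose median was 0.25 (n = 1876), with 198 genes over- and 88 under-represented. When the initial small polysomes were put in place of the extensive ones the median of this class was −0.32, whereas no other class changed sign. CDSs took 51.7% of the divisor in the initial small polysomes against 63.7% in the extensive ones. The swap was not rescaled to CDS reads, so that the scaling lowered every ratio as well. The length of equal density depends on the scaling and is not fixed by these libraries. Genes of over 500 to 1000 aa had a median of −0.67 (n = 1722; 10 over- and 559 under-represented), those of over 1000 to 1500 aa −1.03 (n = 553; 1 and 291) and those over 1500 aa −1.18 (n = 373; 0 and 236). The steps in the median were larger between this middle class and its neighbours than at either end of the range.

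The Spearman correlation between ratio and CDS length was −0.77 across the 5909 genes, which are not replicates and share both libraries. Within classes it was −0.01 up to 100 aa, 0.01 at over 100 to 150 aa, −0.17 at over 150 to 250 aa, −0.43 at over 250 to 500 aa, −0.25 at over 500 to 1000 aa, −0.06 at over 1000 to 1500 aa and −0.17 over 1500 aa. It was farthest from 0 in the class of over 250 to 500 aa. Counted as reads, CDSs of up to 250 aa held 31.0% of the footprints of the genes kept in the extensive small polysomes and 14.6% in all polysomes. CDSs over 500 aa held 37.4% in the extensive small polysomes against 61.8% in all polysomes. Such shares are the same under any scaling of the libraries.

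**Figure D1:**
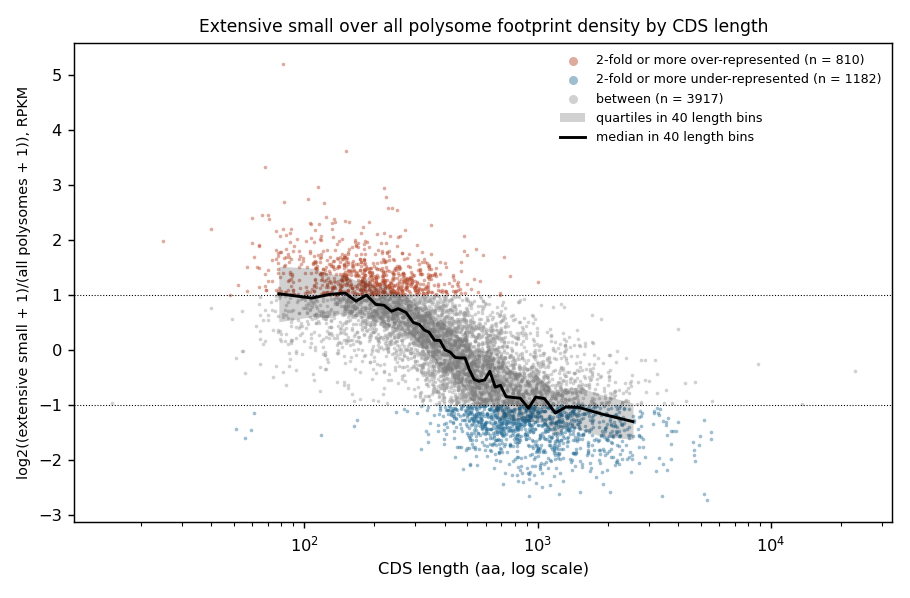
Log2 ratio of footprint density (RPKM + 1), extensive small over all polysomes, against CDS length on a log axis. Each point is 1 of 5909 genes, red for 810 over-represented and blue for 1182 under-represented genes, and the line and band are the median and quartiles in 40 length bins, lying near 1 for short CDSs and below −1 for the longest.

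Cytoplasmic mRNA density (mRNA RPKM) had little relation to the ratio over all lengths at once, with a Spearman correlation of 0.08. Genes at 100 RPKM and over had a median log2 ratio of 0.29 (n = 925), those at 20 to under 100 RPKM −0.10 (n = 3133) and those at 5 to under 20 RPKM −0.17 (n = 1725). Abundant mRNAs had shorter CDSs, however, the correlation of CDS length with mRNA density being −0.25. Below 5 RPKM only 126 genes were kept, 8 of them under 1 RPKM.

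Within long CDSs the relation to mRNA density turned the other way. From over 500 to 1000 aa the median log2 ratio was −0.51 at 5 to under 20 RPKM of mRNA (n = 555), −0.72 at 20 to under 100 RPKM (n = 949) and −1.07 at 100 RPKM and over (n = 176). Over 1500 aa the 3 medians were −1.04 (n = 164), −1.35 (n = 186) and −1.94 (n = 14, with an interval of −2.19 to −1.14 that overlaps only the class before it). The more abundant a long mRNA was, the lower was its footprint density in small relative to all polysomes. Up to 250 aa the medians of these mRNA classes lay between 0.81 and 1.05 with overlapping intervals. The correlation within length classes was −0.35 over 1500 aa, −0.25 at over 1000 to 1500 aa and −0.26 at over 500 to 1000 aa. It was −0.13 at over 250 to 500 aa, 0.004 at over 150 to 250 aa, −0.12 at over 100 to 150 aa and −0.02 up to 100 aa. At over 250 to 500 aa the medians of the 3 mRNA classes were 0.34, 0.26 and 0.08 in the same order. The share of genes under-represented reached 92.9% (13 of 14) for the longest and most abundant mRNAs.

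**Figure D2:**
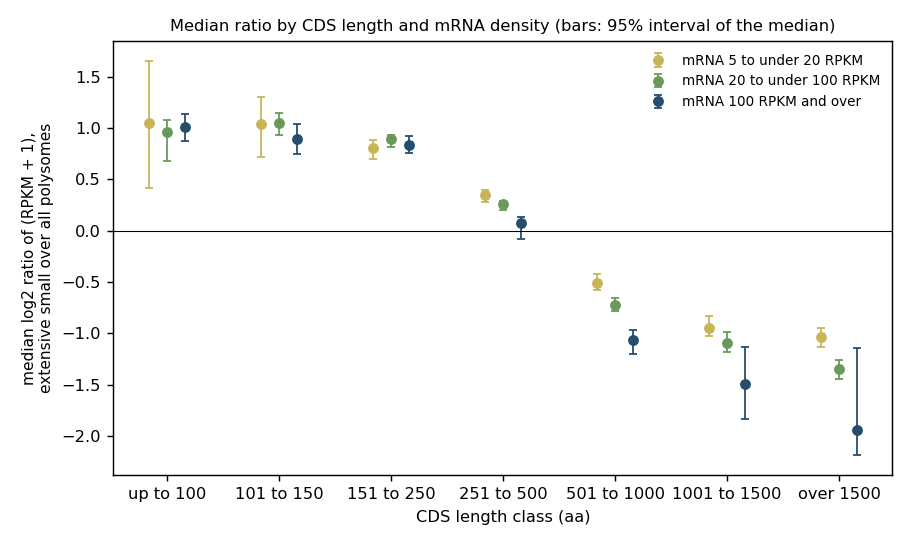
Median log2 ratio of extensive small over all polysomes in each CDS length class, split by mRNA density, with 95% intervals of the median. In the classes up to 250 aa the 3 mRNA classes coincide near 1, and above 500 aa the medians are lower the higher the mRNA density, down to −1.94 over 1500 aa.

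Among genes with a name and at least 100 reads, the highest ratio was that of Obp99c, an odorant-binding protein (chromosome 3R, 25511521 to 25512445, FlyBase Release 5). Its density was 78.8 RPKM in the extensive small polysomes and 5.5 RPKM in all polysomes, a log2 ratio of 3.62 and a fold of 14.3 (95% counting interval 7.18 to 33.5) that rests on 8 reads in all polysomes. COQ7, a hydroxylase of ubiquinone synthesis (219 aa, chromosome X, 6665403 to 6666978), had 292 RPKM in the extensive small polysomes against 37.0 RPKM in all polysomes, 7.89-fold (6.29 to 10.0). The initial small polysomes gave COQ7 only 53.2 RPKM, so that the extensive preparation was the one that stood apart. GstD7, a glutathione S-transferase, had 41.2 RPKM against 5.11 RPKM (log2 ratio 2.79, 11 reads in all polysomes), and Sld5, of the GINS replication complex, had 125 RPKM against 20.1 RPKM (2.59). Obp99c and GstD7 passed the limit of 10 RPKM only through the extensive small polysomes, so that they had to be higher there.

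The other genes of highest ratio were all at most 189 aa long. RpL38, a protein of the large ribosomal subunit (70 aa, chromosome 2R, 403612 to 403824), was the densest of all CDSs in the extensive small polysomes with 10435 RPKM, against 1913 RPKM in all polysomes (5.45-fold, 5.16 to 5.77). Its density was 2002 RPKM in the initial small polysomes and 478 RPKM in large polysomes, so that the initial small polysomes were close to all polysomes and far below the extensive ones. CoVIIc, a cytochrome c oxidase subunit of 66 aa (chromosome 2R, 5937066 to 5937374), had 4546 RPKM in the extensive small polysomes against 830 RPKM in all polysomes (5.48-fold, 5.02 to 5.99), with 1667 RPKM in the initial small polysomes and 275 RPKM in large polysomes. For CoVIIc both small polysome libraries lay above both others. Ras85D, the Ras GTPase, had 809 RPKM against 161 RPKM (log2 ratio 2.32), with 231 RPKM in the initial small and 204 RPKM in large polysomes. Bin1 (2.34) and HP6 (2.31), which are chromatin proteins, the small Maf transcription factor maf-S (2.30), the mitochondrial ribosomal protein mRpL49 (2.23) and Kaz1-ORFB (2.97, 7 reads in all polysomes) made up the rest. Kaz1-ORFB, at 6.31 RPKM in all polysomes, passed the limit of 10 RPKM only through the extensive small polysomes.

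Of the 6 densest named CDSs of the extensive small polysomes, 5 were short. Nplp2, a small secreted protein (86 aa), followed RpL38 with 10434 RPKM against 3428 RPKM in all polysomes (log2 ratio 1.61). The actin-severing protein cofilin (tsr, 148 aa) had 7586 RPKM against 2900 RPKM (1.39), RpS25 5173 RPKM against 2358 RPKM (1.13) and RpS3 4925 RPKM against 2598 RPKM (0.92). The exception was elongation factor Ef1alpha48D (463 aa), which delivers aminoacyl-tRNA to the ribosome and had 4845 RPKM against 6930 RPKM (−0.52), the highest density of these 6 in all polysomes.

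**Figure D3:**
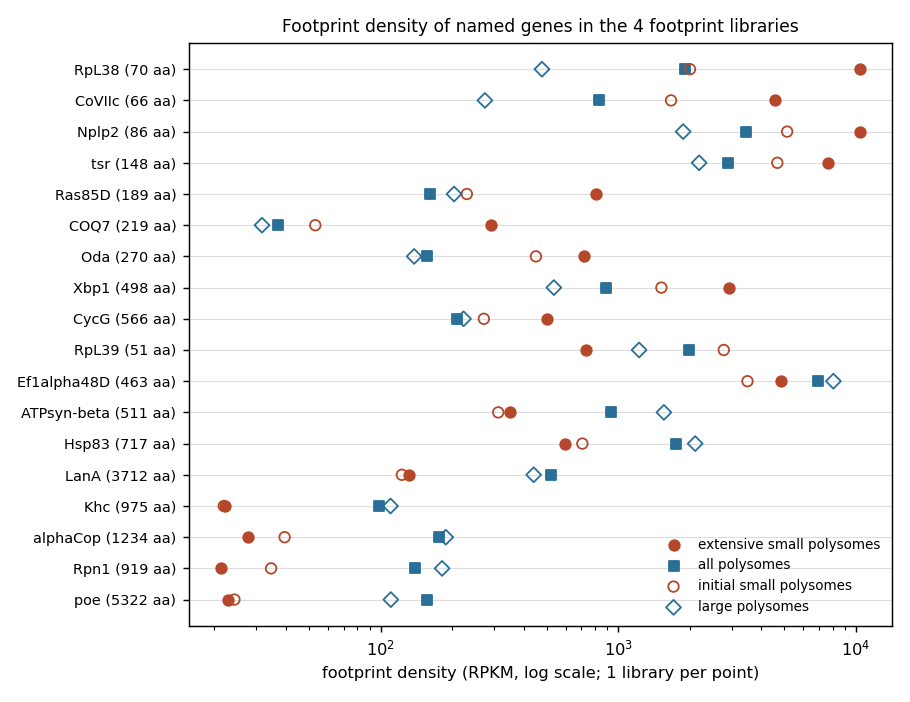
Footprint density (RPKM, log axis) of 18 named genes in the extensive small, all, initial small and large polysome libraries, 1 library per point. The short genes at the top have their extensive small value to the right of all polysomes, RpL38 reaching 10435 against 1913 RPKM, and the long genes at the bottom have both small polysome values to the left, poe reaching 22.8 against 157 RPKM.

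At the other end, poe encodes a very large calmodulin-binding protein of 5322 aa (chromosome 2L, 8054511 to 8071566) and had 22.8 RPKM in the extensive small polysomes against 157 RPKM in all polysomes. This was the lowest log2 ratio of all genes kept (−2.73, fold 0.145, 0.140 to 0.151). The initial small polysomes gave 24.3 RPKM and the large polysomes 111 RPKM, so that both small polysome preparations lay below both others. Rpn1, a scaffold subunit of the proteasome regulatory particle (919 aa, chromosome 3L, 19908291 to 19911119), had 21.4 RPKM against 140 RPKM (−2.66, fold 0.152, 0.137 to 0.169), with 34.7 RPKM in the initial small and 182 RPKM in large polysomes. Rpn1 was the shortest but for aub and Dref among the 12 lowest.

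Both rabconnectin subunits, which regulate the vacuolar proton pump, were among the 12 lowest: Rbcn-3A had 11.4 RPKM against 76.7 RPKM (log2 ratio −2.65) and Rbcn-3B 17.1 RPKM against 107 RPKM (−2.57). The COPI coat subunit alphaCop had 27.8 RPKM against 176 RPKM (−2.62), and Atg2, needed to form autophagosomes, 10.3 RPKM against 60.4 RPKM (−2.44). The remaining ones were IntS1 of the Integrator complex (−2.58), the piRNA pathway proteins fs(1)Yb (−2.48) and aub (−2.39), Hem of the actin-regulating SCAR complex (−2.45), the transcription factor Dref (−2.44) and the Hedgehog receptor ptc (−2.38). Each had a lower density in both small polysome libraries than in either of the others. At 3.49 RPKM and 4.33 RPKM in the extensive small polysomes, fs(1)Yb and ptc passed the limit of 10 RPKM only through all polysomes. Coverage, the share of a CDS under footprints, was still 0.82 for poe and Rpn1 and 0.91 for alphaCop in the extensive small polysomes, so that their reads were spread along the CDS.

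Some genes went against their length. Of 2648 genes over 500 aa, 11 were over-represented. CycG, a cyclin of 566 aa (chromosome 3R, 27424995 to 27427932), had 502 RPKM in the extensive small polysomes against 209.9 RPKM in all polysomes, 2.39-fold (2.25 to 2.55), which is 1.92 above the median of its length class on the log2 scale. It had 272 RPKM in the initial small and 224 RPKM in large polysomes, and 5 upstream ORFs were listed for it. CG8531 (545 aa) had 456 RPKM against 128 RPKM (log2 ratio 1.83), Spred, an inhibitor of Ras signalling, 125 RPKM against 57.9 RPKM (1.10), and the photolyase phr 116 RPKM against 54.9 RPKM (1.06). In each of these the initial small polysomes also exceeded the large polysomes. Zyx, the focal adhesion protein zyxin, had 66.6 RPKM against 19.4 RPKM (1.73), but only 10.7 RPKM in the initial small polysomes, with which its ratio was −0.81. The mitochondrial P450 Cyp12a5 (1.29) had a ratio of −0.06 with the initial small polysomes, not rescaled to CDS reads. The other 5 were CG34404, CG18171, CG12075, CG5455 and CG4970, with ratios of 1.00 to 1.69. All of these but CG4970 had only 4.26 to 8.20 RPKM in all polysomes. They passed the limit of 10 RPKM through the extensive small polysomes alone, so that they had to be higher there.

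Over 1000 aa the highest ratios of genes with a symbol were under 1. They belonged to the endocytic protein stnB (244 RPKM against 137 RPKM, 0.83), the adenylyl cyclase Ac3 (0.78) and the DNA repair protein mus210 (87.1 RPKM against 50.4 RPKM, 0.78). Ac3, at 6.53 RPKM in all polysomes, passed the limit of 10 RPKM only through the extensive small polysomes, so that it had to be higher there. Over 1500 aa the highest ratios were those of RhoGAP100F (0.57), chif (0.14) and sol (0.12). Coverage of RhoGAP100F was 0.35 in both libraries, so that most of its longest CDS was without footprints. The same held for Sh3beta (485 aa, ratio 1.79), whose coverage was 0.38 in the extensive small polysomes and 0.37 in all polysomes.

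Of the 525 genes of up to 150 aa, 5 were under-represented, namely CG18624, CG43954, CG43210, CG42308 and RpL39. RpL39, after RpL41 the shortest of the ribosomal proteins kept (51 aa, chromosome 2R, 19949467 to 19949913), had 733 RPKM in the extensive small polysomes against 1989 RPKM in all polysomes (log2 ratio −1.44, fold 0.369, 0.338 to 0.403). In the initial small polysomes it had 2777 RPKM and in large polysomes 1223 RPKM, and with the initial library its ratio was 0.48. CG18624 (56 aa) behaved alike, with 84.3 RPKM in the extensive small against 257 RPKM in all polysomes (−1.60) but 336 RPKM in the initial small polysomes. Both CDSs are shorter than 60 aa and were fully covered in both libraries. CG43954 (118 aa) had 65.7 RPKM against 192 RPKM (−1.53) and also a low initial small value of 57.6 RPKM, against 107 RPKM in large polysomes. CG43210 and CG42308 had at most 24 reads in each library. Among named genes that were not called, the lowest ratios of the short classes were those of Thor, the inhibitor of cap-dependent initiation 4E-BP (38.9 RPKM against 65.5 RPKM, −0.74, with 78.1 RPKM in the initial small polysomes), of the small ribosomal subunit protein RpS29 (−0.42), of Qtzl (−0.35) and of the mitochondrial ribosomal protein mRpL42 (−0.35).

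Gene groups were described by 29 lists of textbook complexes and pathways, whose 590 entries kept belong to 584 genes. Each list is given by its over- and under-represented members, read against 13.7% and 20% for all genes kept, and by its median. Where a list is set against length, the deviation is the log2 ratio minus the median of the gene's length class.

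Ribosomal proteins were among the best covered short CDSs. Of 93 genes listed as cytosolic ribosomal proteins, 85 were kept, with a median log2 ratio of 0.67, 12 over- and 1 under-represented (RpL39). Among the 85 was qm (338 aa, −0.11, not called), a geranylgeranyl diphosphate synthase, which the list held by mistake. After RpL38 the highest were RpL41, of 25 aa (4714 RPKM against 1186 RPKM, 1.99), RpL34a (1.54) and RpL13 (1.35), while RpS23, with 3795 RPKM against 3046 RPKM, had 0.32. Their ratios were lower than those of other genes of their length: the 68 of up to 250 aa had a median of 0.67 (95% interval 0.54 to 0.77), against 0.93 (0.90 to 0.97) for the 1317 other genes of that length. Restricting those other genes to mRNAs of 100 RPKM and over left 331 genes with a median of 0.95 (0.88 to 1.02). mRNA density was still not matched, with a median of 199 RPKM in the 331 genes and 4630 RPKM in the 68. In the initial libraries the order was the reverse. There the median log2 ratio of initial small over large polysomes was 1.77 for the 68, 1.28 for the 1317 and 1.44 for the 331 genes. The 75 mitochondrial ribosomal proteins had a median of 0.80, with 32 over- and 1 under-represented, and the 52 of up to 250 aa had 1.09 (0.90 to 1.30). The median mRNA density was 49.5 RPKM for the mitochondrial and 4601 RPKM for the cytosolic ribosomal protein genes. The single low mitochondrial one was mRpS5 (407 aa, 5.44 RPKM against 17.4 RPKM, −1.52). It passed the limit of 10 RPKM only through all polysomes, so that it had to be lower in the extensive small polysomes.

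Translation factors lay on both sides of equality. Initiation factors had a median of −0.22 (29 genes, 3 over- and 4 under-represented), from eIF-1A (148 aa, 529 RPKM against 180 RPKM, 1.56) to the scaffold eIF4G (1919 aa, 19.9 RPKM against 73.3 RPKM, −1.83). The helicase eIF-4a (403 aa) was near equality with 1070 RPKM against 963 RPKM (0.15). Elongation factors had a median of 0.03 (6 genes, 1 over-represented), eEF1delta being highest at 704 RPKM against 246 RPKM (1.51) and Ef2b, the translocase, at 2553 RPKM against 2691 RPKM (−0.08). Ef2b, of 844 aa, was 0.59 above its length class. The 21 aminoacyl-tRNA synthetases had a median of −1.16, with 12 under- and 0 over-represented, and ranged from Aats-ser (0.72) to Aats-ala (44.4 RPKM against 178 RPKM, −1.98).

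The proteasome split along its structure. The list median was −0.13 (33 of 47 genes kept, 1 over- and 11 under-represented). The 14 core particle subunits Prosalpha and Prosbeta, which form the proteolytic barrel, had a median of 0.27 and lay between 0.04 and 1.10, all above the 18 Rpn and Rpt subunits of the regulatory particle but Rpn11 (0.19). These 18 had a median of −1.11 and 11 were under-represented, from Rpn1 and Rpn2 (31.4 RPKM against 143 RPKM, −2.16) to Rpn11. All 18 regulatory subunits, of 264 to 1029 aa, lay below the median of their own length class, by a median of 1.23. The Rpt6 relative Rpt6R (0.81) was counted in neither. This split by particle was made after the values were seen.

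Mitochondrial respiratory subunits were divided by length. The 26 OXPHOS subunits had a median of 0.92, with 10 over- and 4 under-represented. The 4 were the catalytic or core subunits ATPsyn-beta (351 RPKM against 935 RPKM, −1.41), SdhA (−1.35), blw, the ATP synthase alpha subunit (220 RPKM against 507 RPKM, −1.20), and ND75 (−1.17), all over 500 aa. Against these, ATPsyn-gamma (297 aa) had 1289 RPKM against 1121 RPKM (0.20), and the short cytochrome c oxidase subunits CoVb (1.47) and CoIV (1.37) were over-represented with CoVIIc. Among the 10 was mge (1.69), the import receptor Tom22, which the list held by mistake. Subunits of one enzyme therefore had ratios on both sides of 0. Of the mitochondrial import proteins (median 1.02, 10 of 14 kept) 5 were over-represented, led by Tim9b (2.02, 9 reads in all polysomes), and the receptor Tom70 was under-represented (19.0 RPKM against 49.9 RPKM, −1.35). Tim9b, at 7.97 RPKM in all polysomes, passed the limit of 10 RPKM only through the extensive small polysomes.

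The vacuolar ATPase showed the same division, with a median of −0.31 (18 of 33 kept, 4 over- and 4 under-represented). VhaM9.7-b (89 aa, 523 RPKM against 200 RPKM, 1.39), Vha14-1 and Vha13 (1.38 each) and Vha36-1 (1.04) were over-represented. The catalytic subunits Vha68-2 (54.1 RPKM against 155 RPKM, −1.5) and Vha68-1 (−1.21) and the large membrane subunits Vha100-1 (−1.27) and Vha100-2 (−1.31) were under-represented. Vha16-1, the proteolipid of the membrane ring, was not called at 936 RPKM against 1016 RPKM (−0.12), although it is 159 aa long. Sec61, signal peptidase and SRP genes had a median of 0.65 (16 genes, 3 over- and 3 under-represented), from Srp9 (1.47) to the translocon channel Sec61alpha (168 RPKM against 466 RPKM, −1.47).

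Chaperones and the abundant cytoskeletal proteins lay below the medians of their length classes. Of 33 chaperones 19 were kept, with a median of −1.09, 11 under- and 0 over-represented, and all 19 were below the median of their length class. Hsp83, the Hsp90 of the fly, had 596 RPKM against 1745 RPKM (−1.55), with 706 RPKM in the initial small and 2105 RPKM in large polysomes, and Hsc70-4 had 410.4 RPKM against 1192 RPKM (−1.54). The small heat shock protein Hsp27 was at the top (0.68). Actins and tubulins (12 of 16 kept) had a median of −0.84 with 4 under-represented, and all 12 were below their class, by a median of 1.09, Act5C having 1958 RPKM against 3260 RPKM (−0.73) and alphaTub84B 721 RPKM against 1531 RPKM (−1.08). Act42A, with 426 RPKM against 1180 RPKM (−1.47), is nearly identical to Act5C in sequence, and as reads with several matches were discarded, densities of actins, tubulins and Hsp70 relatives are uncertain. Glycolytic enzymes had a median of −0.82 (12 genes, 5 under- and 0 over-represented), Pfk being lowest (2.26 RPKM against 13.1 RPKM, −2.11) and Gapdh1 near equality (313 RPKM against 338 RPKM, −0.11). Pfk passed the limit of 10 RPKM only through all polysomes.

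Small partners of the cytoskeleton stood opposite to its large proteins. Small dynein chains and actin-binding proteins had a median of 1.31 (8 genes, 6 over-represented), with Mlc-c, a myosin light chain, at 1489.6 RPKM against 469 RPKM (1.67) and profilin (chic) at 1261 RPKM against 991 RPKM (0.35). Large cytoskeletal and motor proteins had a median of −1.11 (22 genes, 12 under- and 0 over-represented), with kinesin heavy chain Khc at 22.2 RPKM against 98.3 RPKM (−2.10), the dynein heavy chain Dhc64C at 30.1 RPKM against 116 RPKM (−1.91) and the myosin heavy chain zip at 86.9 RPKM against 277 RPKM (−1.66). Light and heavy chains of the same motors thus fell on opposite sides. The spectraplakin shot, of 8805 aa, was the highest of them (32.6 RPKM against 39.0 RPKM, −0.25), 0.93 above its length class, while the median deviation of the list was 0.07.

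All 6 basement membrane and matrix proteins kept (of 10) were under-represented, with a median of −1.92. LanA, a laminin chain of 3712 aa, had 132 RPKM in the extensive small polysomes against 519 RPKM in all polysomes (fold 0.253, 0.248 to 0.259), with 123 RPKM in the initial small and 441 RPKM in large polysomes. LanB1 was lowest (56.6 RPKM against 284 RPKM, −2.31) and the hemocyte peroxidase Pxn highest (260 RPKM against 702 RPKM, −1.43). All 6 also lay below the median of their length class, by a median of 0.74. Large kinases, ligases and chromatin proteins had a median of −1.49 (25 genes, 19 under- and 0 over-represented), from poe, kis (43.2 RPKM against 135 RPKM, −1.62) and the kinase Tor (11.7 RPKM against 47.5 RPKM, −1.93) to lola, which was at equality (115.2 RPKM against 117 RPKM, −0.03), although its CDS overlaps that of another gene.

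**Figure D4:**
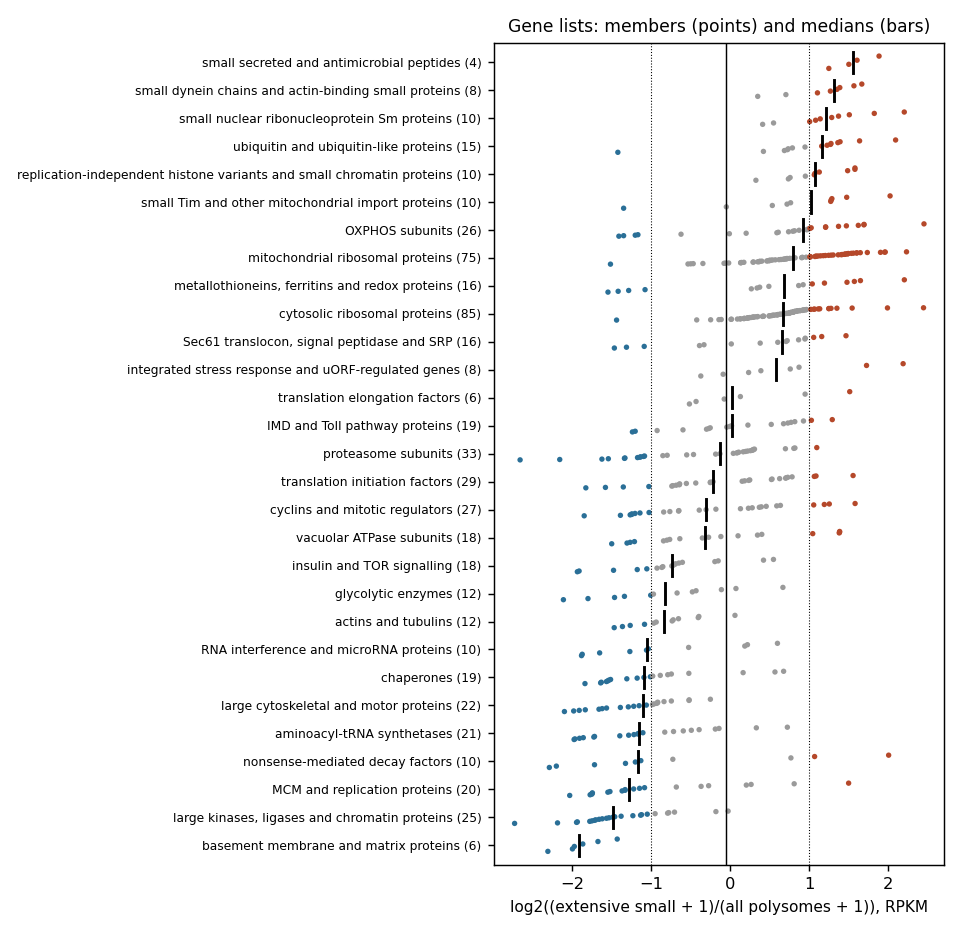
Log2 ratios of the members of 29 gene lists, sorted by the list median (bars), with the number of genes kept in brackets, dotted lines at 2-fold and a solid line at the median of all genes kept (−0.06). Lists of small proteins, such as Sm proteins (1.21), sit right of the lines and lists of large proteins, such as matrix proteins (−1.92), left.

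Nuclear proteins lay on both sides as well. The Sm and LSm proteins that form the rings of spliceosomal RNAs had a median of 1.21 (10 genes, 8 over-represented), SmF being highest (836 RPKM against 181 RPKM, 2.20). Histone variants made outside S phase and small chromatin proteins had 1.07 (10 genes, 6 over-represented), with HmgD at 1250.5 RPKM against 446 RPKM (1.49) and HmgZ at 1.58. Replication proteins had −1.28 (20 genes, 13 under- and 1 over-represented). The over-represented one was geminin, the inhibitor of origin licensing (192 aa, 475 RPKM against 167 RPKM, 1.5), whereas its counterpart dup (Cdt1) had 21.2 RPKM against 54.8 RPKM (−1.33). The helicase subunits Mcm2, Mcm3, Mcm5, Mcm6, Mcm7 and dpa (Mcm4) lay between −1.75 and −1.22.

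Cyclins and mitotic regulators spread widely around a median of −0.30 (27 genes, 4 over- and 8 under-represented). Over-represented were CycK (511 RPKM against 170 RPKM, 1.58), CycG, the Cdk inhibitor dap (1.19) and CycY (1.06). The mitotic cyclins CycB (46.9 RPKM against 114 RPKM, −1.27) and CycB3 (−1.25) and the kinases polo (49.6 RPKM against 116 RPKM, −1.20) and aur (−1.39) were under-represented, with BubR1 lowest (−1.85). BubR1, at 8.89 RPKM in the extensive small polysomes, passed the limit of 10 RPKM only through all polysomes. Insulin and TOR signalling genes had −0.73 (18 genes, 5 under- and 0 over-represented). The small GTPase Rheb was highest (83.9 RPKM against 57.1 RPKM, 0.55) and Tor, raptor (−1.91) and rictor (−1.48) lowest, with the receptor InR at −1.18.

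Immune genes were balanced. The IMD and Toll pathways had a median of 0.02 (19 genes, 2 over- and 2 under-represented) and lay 0.42 above their length classes. The adaptor imd (67.7 RPKM against 27.1 RPKM, 1.29) and the recognition protein PGRP-SA (1.03) were over-represented, the transcription factor Rel (41.3 RPKM against 96.4 RPKM, −1.20) and the receptor Tl (−1.24) under-represented. Of 24 small secreted and antimicrobial peptides only 4 were kept, all over-represented with a median of 1.55, namely Nplp2, Dro (14.6 RPKM against 3.22 RPKM, 1.88, 2 reads in all polysomes), CecA1 (1.5) and Drs (53.8 RPKM against 22.1 RPKM, 1.25). Dro and CecA1 passed the limit of 10 RPKM only through the extensive small polysomes, so that they had to be higher there.

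Ubiquitin, its relatives and conjugating enzymes had a median of 1.16 (15 genes, 8 over- and 1 under-represented). Nedd8 was highest (176 RPKM against 40.6 RPKM, 2.09), and the polyubiquitin gene Ubi-p63E, of 763 aa, was the low one (11.6 RPKM against 32.8 RPKM, −1.42), with a coverage of 0.13 in the extensive small polysomes and 0.14 in all polysomes. Metallothionein, ferritin and redox genes had a median of 0.68 (16 of 23 kept, 6 over- and 4 under-represented), with the metal-binding MtnA, of 40 aa, at 1835 RPKM against 398 RPKM (2.20), superoxide dismutases Sod2 (1.65) and Sod (1.57), and catalase (Cat, −1.08) among the low ones. RNA interference and microRNA proteins had −1.05 (10 genes, 6 under- and 0 over-represented), from the dsRNA-binding protein r2d2 (0.60) to the nuclease Dcr-1 (7.54 RPKM against 30.5 RPKM, −1.88). Nonsense-mediated decay factors had −1.17 (10 genes, 2 over- and 6 under-represented). The over-represented ones were both partners of an exon junction dimer, tsu (703 RPKM against 174 RPKM, 2.01) and mago (251.3 RPKM against 119 RPKM, 1.07), and the lowest were Upf1 (8.38 RPKM against 44.9 RPKM, −2.29) and nonC (−2.20). With 10 RPKM required in both libraries 6 of these 10 were left and the list median was 0.02. Dcr-1 and Upf1 passed the limit of 10 RPKM only through all polysomes.

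Genes of the integrated stress response or known to be controlled through upstream or overlapping ORFs had a median of 0.57 (8 of 11 kept, 2 over- and 0 under-represented), and 7 of the 8 lay above their length class. Xbp1, the transcription factor of the unfolded protein response (498 aa), had 2934 RPKM in the extensive small polysomes against 887 RPKM in all polysomes (3.31-fold, 3.21 to 3.42), with 1518 RPKM in the initial small and 536 RPKM in large polysomes. Oda, the antizyme of ornithine decarboxylase (270 aa), whose translation needs a frameshift, had 719.8 RPKM against 157 RPKM (4.58-fold, 4.14 to 5.08), with 450.5 RPKM and 138.5 RPKM. In both genes the small polysome libraries exceeded both others. The ATF4 homologue crc had 562 RPKM against 307 RPKM (0.87), Gadd34 0.76, and the kinase PEK 82.5 RPKM against 107 RPKM (−0.37).

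Upstream ORFs (uORFs), short ORFs in the 5′ leader, were listed for 2574 of the 5909 genes, after 11021 of 11587 listed transcripts (95.1%) were matched to a gene. Over all lengths, genes without a listed uORF had a median log2 ratio of 0.12 (n = 3335) and those with 5 or more −0.49 (n = 425), but their CDSs had median lengths of 388 aa and 798 aa. Within long CDSs the order was the opposite. From over 500 to 1000 aa the median was −0.80 without a listed uORF (95% interval −0.88 to −0.75, n = 856), −0.63 with 1 (n = 350), −0.51 with 2 to 4 (n = 353) and −0.46 with 5 or more (−0.57 to −0.34, n = 163). From over 1000 to 1500 aa it was −1.31, −1.10, −0.86 and −0.74 in the same order, and the under-represented genes numbered 145 of 217 without a uORF and 25 of 91 with 5 or more. Over 1500 aa the medians were −1.31, −1.29, −1.19 and −0.99. Long genes with more listed uORFs were therefore less depleted from small relative to all polysomes. Up to 500 aa the intervals of the medians overlapped at each length. Median mRNA density in the over 1000 to 1500 aa class was 28.5 RPKM without a listed uORF and 20.1, 22.8 and 21.7 RPKM with 1, 2 to 4 and 5 or more, and the part of mRNA density in these differences was not tested.

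**Figure D5:**
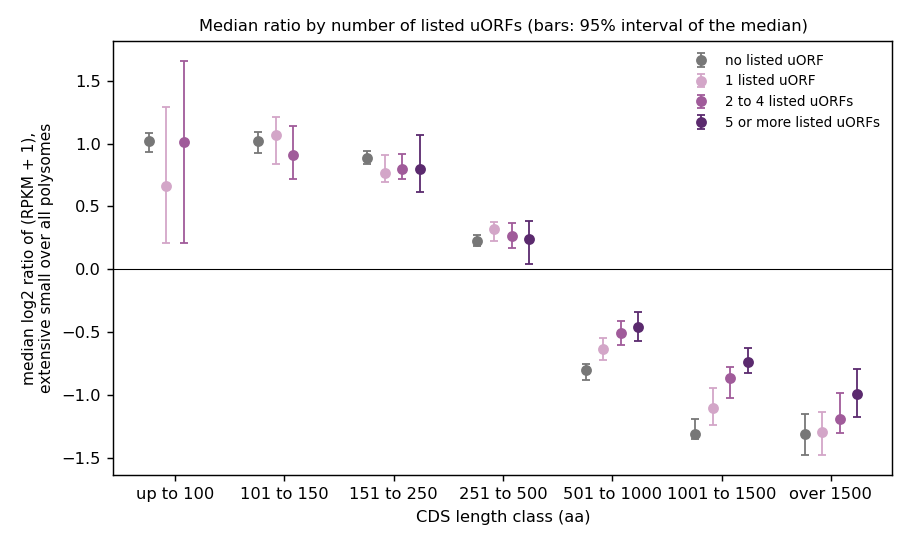
Median log2 ratio of extensive small over all polysomes by CDS length class and number of listed uORFs, with 95% intervals of the median. Above 500 aa the medians are higher the more uORFs were listed, reaching −0.46 at over 500 to 1000 aa against −0.80 without any, and below that length they overlap.

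The initial small and large polysome libraries, which shared no footprint library with the comparison, ordered the same genes alike. Of the 810 over-represented genes, 743 (91.7%) had a higher density in the initial small than in large polysomes, against 40.2% of all genes kept, and 495 (61.1%) exceeded it 2-fold or more, against 20% of all genes kept. Of the 1182 under-represented genes, 1169 (98.9%) were denser in large polysomes, against 59.8% of all genes kept, and 966 (81.7%) by 2-fold or more, against 30.9% of all genes kept. Across the 5909 genes the Spearman correlation between both ratios was 0.79, both ratios being lower for longer CDSs. Within length classes the correlation was 0.63 at over 250 to 500 aa, 0.73 at over 500 to 1000 aa, 0.77 at over 1000 to 1500 aa and 0.78 over 1500 aa. It was only 0.17 up to 100 aa, −0.03 at over 100 to 150 aa and 0.21 at over 150 to 250 aa. Differences among genes within a length class over 250 aa therefore recurred between the libraries, whereas those within a class up to 250 aa mostly did not. Lengths still differ within a class, and at over 250 to 500 aa the ratio had a correlation of −0.43 with CDS length. The part of length in these correlations was not tested.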

How the data were processed

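S2 cells were profiled in 4 footprint libraries and 1 mRNA sample. Clipped and trimmed reads were cleared of rRNA and tRNA matches with Bowtie by the authors and aligned with TopHat against the FlyBase Release 5 genome, with up to 2 mismatches and only reads with 1 match retained. Versions are not given in the sources used here. The deposited tables hold RPKM per CDS, and beside it footprint coverage, a fraction of the CDS length, also deposited by the authors. Scaling by aligned reads leaves a ratio open to the share of reads outside CDSs. CDSs took 63.7% of the divisor in the extensive small polysomes and 73.1% in all polysomes. In the initial small polysomes they took 51.7% and in large polysomes 72.0%.

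The longest CDS per gene was used, of 28529 CDSs in 13967 genes, 125 of them without values. Multiplying RPKM by length and divisor gave whole reads (within 0.01) for 100% of values. The divisors are 9160000 for the extensive small polysomes, 3190000 for all, 5498000 for the initial small and 2625000 for large polysomes, and 4560000 for mRNA. RPKM values are no counts, so no count model was used, and no test was run between the 1 extensive small and the 1 all polysome library. Ratios are log2((RPKM + 1)/(RPKM + 1)), and the pseudocount understates changes of low genes. Counting intervals of folds are exact binomial (95%), intervals of medians are binomial order statistics, and correlations are descriptions across genes. The procedures were tested on simulated data.

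Gene lists and members were chosen with earlier results of these data known. Genes named are, among 3337 genes with a symbol other than a CG number and 100 or more reads, the 12 highest and 12 lowest ratios, the 3 highest and lowest per length class, the densest and extreme members of each list and the 6 densest in the extensive small polysomes, with genes next to the 10 RPKM limit, CG-numbered genes and genes against their length named apart. Other members of lists were named after their values were seen. uORF transcripts were matched by FlyBase identifier. Alternatives tried were the pseudocount, filters, CDS choice, scaling, library and fold, and, chosen after seeing the data, a coverage of 0.57 and exclusion of overlapping CDSs. NimC1 and ORFs in ncRNAs were not analysed here. The work was done in Python 3.11.15 with pandas 2.3.3, scipy 1.17.1 for intervals, numpy 2.4.6, and matplotlib 3.10.9 for the plots.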

Additional observations from a re-analysis of the deposited data

How the results depend on the processing

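The comparison sets 1 library against 1, so none could be left out, and the intervals hold no variation between preparations. No paired analysis was possible because the samples carry no replicate numbers and all polysomes have 1 library. The counts of over- and under-represented genes were 1624 and 1966 at 1.5-fold and 185 and 309 at 3-fold. With the initial small in place of the extensive library 294 genes were over- and 1661 under-represented, and with the large in place of the all polysome library 1744 and 1405. The median ratio was 0.13 at 30 RPKM or more in either library, 0.0373 at 10 RPKM in both, 0 when centred, 0.14 when scaled by CDS reads, −0.50 with the initial small and 0.0310 with the large library. The correlation with length was −0.76 at 5 RPKM, −0.79 at 30 RPKM, −0.64 without a filter, −0.76 with the densest CDS, −0.75 with the shortest, −0.70 with the initial small and −0.71 with the large library. That with mRNA was 0.0391 at 30 RPKM, 0.00285 without a filter, 0.0512 at 10 RPKM in both, 0.12 with the initial small and 0.0233 with the large library. Of the values past 2-fold, those that changed sign were those of Zyx (−0.81), RpL39 (0.48) and Cyp12a5 (−0.0634) with the initial small library, and the median of the nonsense-mediated decay list (0.0210) at 10 RPKM in both libraries, where 6 of 10 genes were left. The cause of these changes was not tested. Values with the initial small library were not rescaled to CDS reads, which took 51.7% of its divisor. Of 1824 values of 155 named genes under the planned settings, 1391 stayed within the counting interval and 430 moved beyond it without changing sign past 2-fold, and of 348 list medians 324 stayed within the interval of the median and 23 did not. A change of filter cannot alter a gene's own ratio, so those values were bound to stay. With the initial small library 24 named genes stayed, 126 moved and 3 changed sign. The large library left 39 in place and moved 116, and scaling by CDS reads left 47 and moved 108.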

Other observations

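Genes known only by a CG number reached similar extremes. CG44009 (122 aa) had 293 RPKM in the extensive small polysomes against 45.03 RPKM in all polysomes (log2 ratio 2.67), with 159 RPKM in the initial small and 23.7 RPKM in large polysomes. CG31337 (104 aa, 2.74) and CG32039 (82 aa, 2.69) were higher but rest on 7 and 8 reads in all polysomes. CG31337, at 6.97 RPKM in all polysomes, passed the limit of 10 RPKM only through the extensive small polysomes. CG8184, of 5151 aa, had 17.5 RPKM against 112 RPKM (−2.61), CG1317 10.9 RPKM against 62.8 RPKM (−2.42) and CG8939 9.52 RPKM against 49.8 RPKM (−2.27). In the 3 low ones both small polysome libraries lay below both others. CG8939 passed the limit of 10 RPKM only through all polysomes.

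The single gene without footprints in all polysomes was CG42736 (81 aa), with 35.5 RPKM in the extensive small polysomes and 2.96 RPKM in the initial ones. Set against a floor of 3 reads in all polysomes it was at least 9.29-fold higher in the extensive small polysomes, but its 80 reads covered 0.163 of the CDS, and neither the large polysomes nor the mRNA library had a read on it.

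Chromosome arms were alike, with medians of the deviation from the length class between −0.01 and 0.004 on X, 2L, 2R, 3L and 3R. The 42 genes of chromosome 4, whose median CDS was 797.5 aa, deviated by a median of 0.26, and 4 of them were over- and 8 under-represented. Genes with a single listed CDS length and those with several deviated by medians of −0.03 (n = 4046) and 0.04 (n = 1863).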
